A study of Mus musculus with 2 samples.

Results

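Cell cycle genes were compared between the incisor of a wild-type and of a *Sox21* KO mouse, with 1 array for each genotype and 2 arrays in all. The members are 47 genes, chosen by name, that hold regulators of the G1/S transition, genes of mitosis and inhibitors of the cyclin-dependent kinases (CDKs), out of 21167 gene names on the array that match a RefSeq symbol. Both incisors were labelled as postnatal day 0, whereas the study's methods give day 1 and describe C57BL/6J mice as the wild-type. The *Sox21* KO mice carry a knockout of *Sox21*, which encodes a transcription factor of the SoxB2 group. How many animals gave RNA for an array and the genetic background of the KO line are not given in the sources used here. RNA was labelled with 1 dye and hybridized to Agilent SurePrint G3 Mouse GE arrays. Each processed signal, from which the scanner software had removed background, was divided by the 75th percentile of its array, and log2 ratios are *Sox21* KO minus wild-type throughout. The study addressed the role of Sox21 in the tooth and followed up *Anapc10*, which encodes a subunit of the anaphase-promoting complex (APC/C), so the transcripts of APC/C substrates are described as a group.

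The cell cycle is driven by cyclins that bind and activate CDKs. D-type cyclins with Cdk4 and Cdk6, then E-type cyclins with Cdk2, release E2F factors from Rb and open the way to DNA replication, and A- and B-type cyclins with Cdk1 drive entry into mitosis. The APC/C is a ubiquitin ligase that marks cyclin B, securin and other proteins for degradation at anaphase and, with its co-activator Fzr1, keeps such proteins low in G1. That control acts on proteins, and the arrays measured RNA only. In the growing incisor, dividing cells lie in the cervical loop and the inner enamel epithelium and in the dental mesenchyme, whereas differentiated ameloblasts and odontoblasts have left the cycle.

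The G1/S and mitotic members differ in the letters of their promoters, as is known from the 2 programmes that control them. E2F factors act on many genes of replication, and the DREAM complex, B-Myb and FoxM1 act on mitotic genes through the cell cycle genes homology region (CHR), often beside CCAAT boxes. RefSeq promoter windows of GRCm38.p6, from 250 bases before to 50 bases after the start, were at hand for 38 of the 47 members, in 43 windows. The CHR letters TTTGAA, searched on both strands, were found in 61.1% of 18 windows of mitotic members, in 10.5% of 19 windows of G1/S members and in 17.9% of all 32851 windows. The E2F letters TTTCCCGC, TTTGGCGC, TTTCGCGC or TTTGCCGC, which can overlap one another, were found on either strand in 42.1% of the G1/S windows, 5.56% of the mitotic windows and 2.26% of all windows. The letters CCAAT, on either strand, were in 83.3% of the mitotic windows, 57.9% of the G1/S windows and 37.4% of all windows. A match is a description of the window and not a proof of binding.

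The stretches of 120 bases just before the start of 5 members are shown because they carry these letters in the arrangement typical of each programme. Capitals mark CHR, E2F and CCAAT matches on either strand, and each stretch reads 5′ to 3′ in the direction of its gene. The first 3 are mitotic members, and the last pair are G1/S members. *Cdk1* lies at chr10:69352913-69353032 (minus strand), *Top2a* at chr11:99024190-99024309 (minus strand), *Kif11* at chr19:37376262-37376381 (plus strand), *Mcm6* at chr1:128359706-128359825 (minus strand) and *Cdc25a* at chr9:109875459-109875578 (plus strand), all on GRCm38.p6.
Cdk1: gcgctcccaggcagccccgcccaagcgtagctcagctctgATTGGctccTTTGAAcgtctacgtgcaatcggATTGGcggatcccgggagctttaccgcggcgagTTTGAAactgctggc
Top2a: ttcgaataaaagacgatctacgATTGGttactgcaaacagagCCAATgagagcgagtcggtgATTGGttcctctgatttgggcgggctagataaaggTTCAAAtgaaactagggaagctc
Kif11: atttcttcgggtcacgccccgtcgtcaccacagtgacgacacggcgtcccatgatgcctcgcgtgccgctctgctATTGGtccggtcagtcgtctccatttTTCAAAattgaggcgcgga
Mcm6: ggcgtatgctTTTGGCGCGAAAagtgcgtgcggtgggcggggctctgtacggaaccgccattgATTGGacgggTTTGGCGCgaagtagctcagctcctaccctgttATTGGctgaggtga
Cdc25a: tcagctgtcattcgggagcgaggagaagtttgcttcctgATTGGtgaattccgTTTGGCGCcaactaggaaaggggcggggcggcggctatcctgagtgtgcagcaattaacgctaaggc
The 3 mitotic stretches pair CHR letters with CCAAT boxes, and the G1/S stretches hold E2F letters and CCAAT boxes without a CHR match. *Cdk1* is also the only mitotic member with E2F letters in its window. They lie at position -131 from the start, just upstream of the stretch shown.

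Both arrays lay on 1 slide. Leaving control spots aside, the share marked as well above background was 50.4% for *Sox21* KO and 49.7% for wild-type, and 0 spots were saturated. *Sox21* itself was lower on the KO array at both probes, with processed signals of 1362 on the wild-type and 659 on the KO array at the brighter and of 286 and 103 at the other. Both probes stayed well above background on the KO array, and whether they lie in the deleted part of the gene is not given in the sources used here. A gene was called measured if the scanner software marked its probe as well above background for both genotypes. With 1 array per genotype no test was possible, and no difference below has a replicate check. The errors given are those of the scanner's own error model, which covers a single hybridization and comes to 0.20 on the log2 scale for most genes, and the log2 ratio of probes spotted repeatedly had a median SD of 0.09 between spots. A fold of 1.2 or more is given as a size only, since 27.2% of all 13751 measured genes were that far apart in either direction.

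Of the 47 members, 42 were measured, and their signals lay close to each other on both arrays. The log2 ratio of the 42 members had a median of 0.05 and ranged from -0.28 to 0.38, beside a median of 0.01 and a range from -2.96 to 2.58 over all measured genes. Above 0 were 25 members, or 59.5%, beside 52.4% of all measured genes. At least 1.2-fold higher in *Sox21* KO were 5 members, or 11.9%, beside 14.2% of all measured genes, and at least 1.2-fold lower were 2 members, or 4.76%, beside 13% of all measured genes. No member (0 of 42) was 2-fold apart, beside 1.41% of all measured genes, and none was 1.5-fold apart (0 of 42), beside 6.2%. The absolute log2 ratio was below the scanner's error for 32 of the 42 members, or 76.2%, and for 66.1% of all measured genes. Dim probes scatter more, and with a processed signal of at least 100 on both arrays the median absolute log2 ratio was 0.10 for 39 members and 0.13 for 11183 genes.

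**Figure D1:**
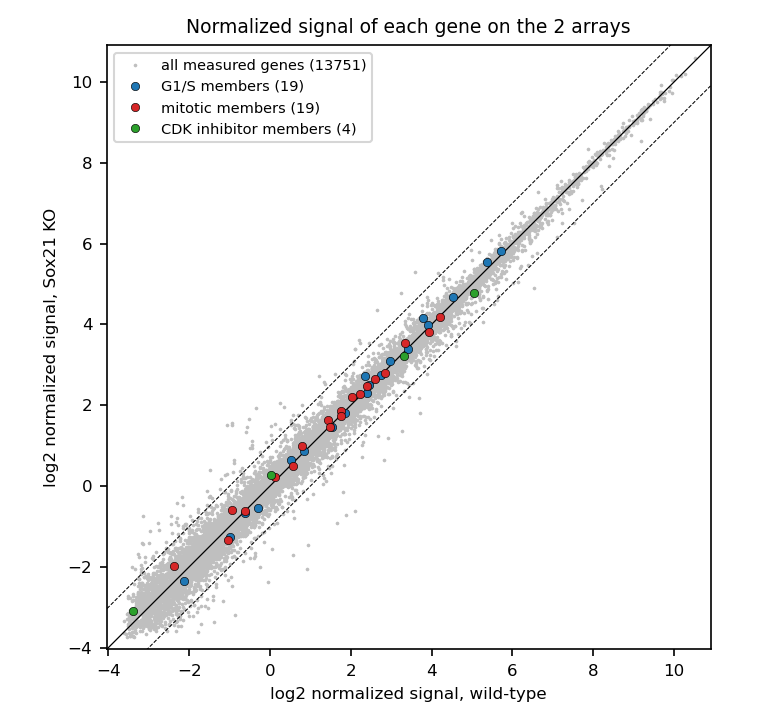
Log2 normalized signal of each measured gene on the wild-type array (x axis) and the *Sox21* KO array (y axis), with all 13751 measured genes in grey and the members in colour by class. The solid line marks equal signals and the dashed lines a 2-fold difference, and all 42 measured members lie between the dashed lines.

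The D cyclins and their kinases, which take cells out of G1, all had log2 ratios above 0 where they could be measured, 3 of the 4 within the scanner's error. *Ccnd2* gave processed signals of 3698 in wild-type and 4908 in *Sox21* KO, a log2 ratio of 0.37 with a scanner error of 0.20. This was the highest ratio among the G1/S members, at a probe on chromosome 6 from 127098696 to 127098755 (mm9). *Ccnd3* had signals of 11096 and 12921 and a log2 ratio of 0.18, with 0.20 at its dimmer probe. *Ccnd1* had 1471 and 1573, a log2 ratio of 0.06, within the error. *Cdk4*, the kinase partner of the D cyclins, had 14206 and 15480 at the brightest of 3 probes, which gave log2 ratios between 0.02 and 0.08. *Cdk6*, the other partner, passed the background call in *Sox21* KO only, with signals of 12.2 (error 5.67) in wild-type and 28.1 (error 5.70) in *Sox21* KO. No fold is given for it, since other wild-type probes as bright as 28.8 did not pass the call.

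The E cyclins and Cdk2, which act next, had log2 ratios below 0 or could not be measured. *Ccne1* had signals of 1419 in wild-type and 1366 in *Sox21* KO, a log2 ratio of -0.10, within its scanner error of 0.20. *Ccne2* did not pass the background call for either genotype, at 5.56 and 3.87. *Cdk2* had 134 and 116, a log2 ratio of -0.25 with an error of 0.22, the lowest among the G1/S members. *Cdc25a*, the phosphatase that activates Cdk2, had 783 and 754, a log2 ratio of -0.09. *E2f1*, the transcription factor upstream of many of these genes, had 385 and 428, a log2 ratio of 0.11. None of these ratios reached 1.2-fold.

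The licensing factors load the MCM helicase on DNA before replication. *Cdt1*, which recruits the helicase, had signals of 1368 in wild-type and 1806 in *Sox21* KO, a log2 ratio of 0.36 with an error of 0.20. *Cdc6*, its partner in loading, had 61.4 and 54.3, a log2 ratio of -0.22 with an error of 0.26. These partners therefore pointed in opposite directions, and the *Cdc6* difference was within its error. *Gmnn* (geminin), which binds and blocks Cdt1, had 174 on both arrays, a log2 ratio of -0.04, whereas its dimmer probe, at 44.5 and 33.9, gave -0.43 with an error of 0.31.

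The 6 MCM genes encode the subunits of one helicase, and their log2 ratios spanned only -0.04 to 0.17. *Mcm6* had the highest, with signals of 6150 on the wild-type and 7100 on the KO array, and *Mcm4* had 2098 and 2353, a log2 ratio of 0.12. *Mcm5* had the lowest, with 971 and 969. *Mcm2*, *Mcm3* and *Mcm7* had log2 ratios of 0.03, 0.01 and -0.02, all 6 of the subunits thus within the scanner's error. *Pcna*, the sliding clamp of the replicative polymerases, had 4057 and 4388, a log2 ratio of 0.07.

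Taken as a class, the 19 measured of 21 G1/S members had a median log2 ratio of 0.03, with 11 above 0 and 8 below. At least 1.2-fold higher were 2 of them, *Ccnd2* and *Cdt1*, or 10.5%, beside 14.2% of all measured genes. None (0 of 19) was that much lower, beside 13% of all measured genes. The remaining one not yet given, *Skp2*, belongs to the APC/C substrates.

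*Mki67*, the marker of dividing cells used in histology, had signals of 2735 in wild-type and 3196 in *Sox21* KO, a log2 ratio of 0.18 with an error of 0.20, and its dimmer probe gave 0.20. The cyclins of S phase and mitosis and their kinase lay closer to 0. *Ccna2* had 1423 and 1533, a log2 ratio of 0.07. *Ccnb1* had 1256 and 1343, a log2 ratio of 0.05, with 0.06 at a dimmer probe and 0.50 at the dimmest, whose signals were 45.7 and 66.4. *Ccnb2* had 1924 and 1917, a log2 ratio of -0.05, and *Cdk1* had 395 and 389, a log2 ratio of -0.06. The 4 genes of the mitotic cyclin-CDK complexes thus stood within 0.07 of 0 at their brightest probes.

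The CDC25 phosphatases remove the inhibitory phosphates from CDKs. *Cdc25c* had the highest log2 ratio of all members, 0.38 with an error of 0.26, from dim signals of 52.0 on the wild-type and 69.5 on the KO array. Under the normexp background correction, which damps dim probes, this became 0.17, and under each other alternative that kept the gene it lay at 0.36 or above. *Cdc25b* had 721 and 854, a log2 ratio of 0.20 with an error of 0.20.

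The spindle checkpoint delays anaphase by holding back the APC/C. *Bub1b* (BubR1), a part of the inhibitory complex, had signals of 140 in wild-type and 182 in *Sox21* KO, a log2 ratio of 0.34 with an error of 0.21, which became 0.25, under 1.2-fold, with the same background correction. *Mad2l1*, another part, had 907 and 1000, a log2 ratio of 0.10, but its 3 probes spanned 0.10 to 0.62, the widest gap between measured probes of any member, and the probe at 0.62 was dim, with 29.5 and 46.8. *Bub1* was spotted 8 times, with mean signals of 175 and 181, a log2 ratio of 0.00 and an SD of 0.10 between spots. *Ttk*, the kinase at the head of the checkpoint, did not pass the background call for either genotype, at 11.9 and 15.8.

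Kinases, kinetochore genes and motors of mitosis showed no shared direction. *Plk1* had signals of 1617 on the wild-type and 1733 on the KO array, and *Aurka* 905 and 921, with log2 ratios of 0.06 and -0.02, whereas *Aurkb* did not pass the background call for either genotype, at 8.71 and 13.0. *Foxm1*, the transcription factor of mitotic genes, had 290 and 322, a log2 ratio of 0.11. *Cenpe*, a kinetochore motor, had 1096 and 1264, a log2 ratio of 0.16, and *Cenpa*, the histone variant of centromeres, had 753 and 764, a log2 ratio of -0.02. *Cenpf* did not pass the background call for either genotype, at 7.26 and 13.9. *Top2a*, which untangles sister chromatids, had 465 and 552, a log2 ratio of 0.21 with an error of 0.21. *Birc5* (survivin), a partner of Aurkb, had 4941 and 4972, a log2 ratio of -0.03, and its other probes gave -0.03 and -0.24. *Kif11*, the motor that pushes spindle poles apart, had 130 and 110, a log2 ratio of -0.28 with an error of 0.22, the lowest of the mitotic members, at a probe on chromosome 19 from 37495755 to 37495814 (mm9). It was under 1.2-fold with the normexp background correction, at -0.19, and when signals were divided by the median of each array in place of the 75th percentile (median scaling), at -0.18.

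The 19 measured of 22 mitotic members had a median log2 ratio of 0.06, with 12 above 0 and 7 below. At least 1.2-fold higher were 2 of them, or 10.5%, beside 14.2% of all measured genes. That much lower was 1, or 5.26%, beside 13% of all measured genes. The mitotic median exceeded the G1/S median by 0.03, a difference that could not be tested. By promoter letters, mitotic members with CHR letters had a median of -0.02 (9 measured) and those without 0.05 (7 measured), and G1/S members with E2F letters had -0.03 (8 measured) and those without 0.07 (7 measured). These medians are descriptions and were not tested.

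**Figure D2:**
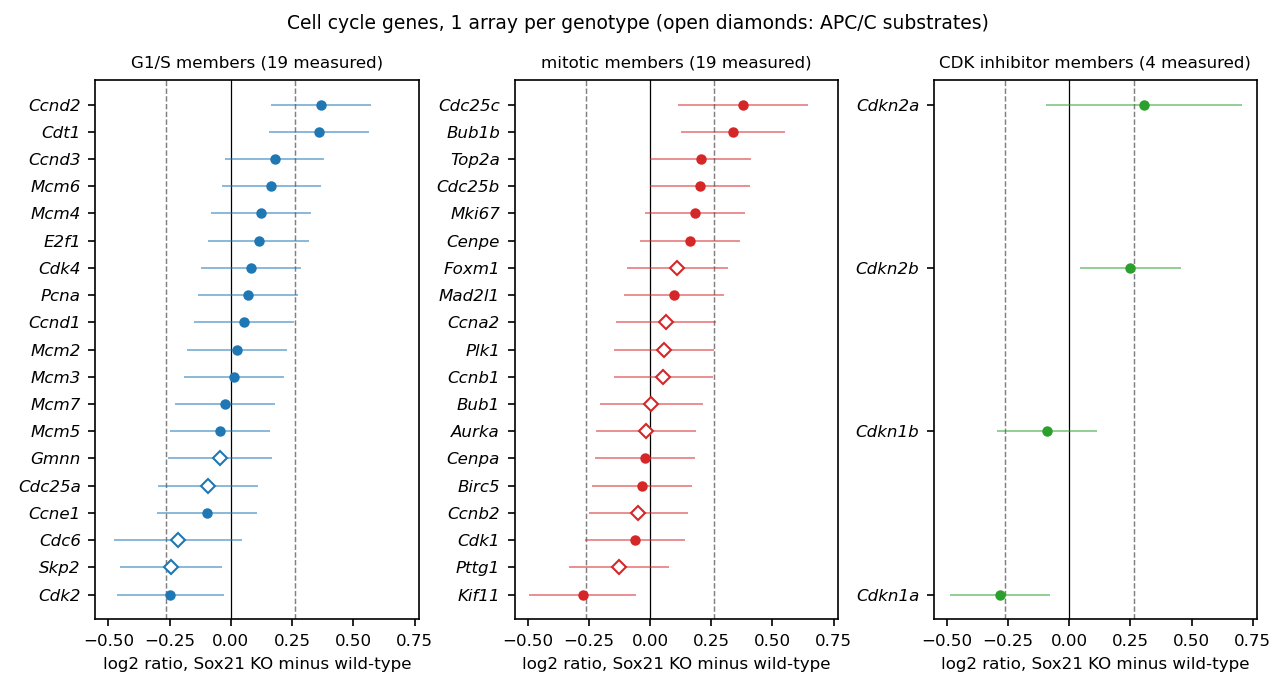
Log2 ratio (x axis, *Sox21* KO minus wild-type) of each measured member in 3 classes, with bars for the scanner's error, dashed lines at 1.2-fold and open diamonds for APC/C substrates. Ratios run from -0.28 for *Cdkn1a* to 0.38 for *Cdc25c*, and every open diamond lies between the dashed lines.

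Among the members, 15 were listed as targets of the APC/C, namely *Ccna2*, *Ccnb1*, *Ccnb2*, *Pttg1*, *Gmnn*, *Skp2*, *Aurka*, *Aurkb*, *Plk1*, *Cdc6*, *Cdc25a*, *Foxm1*, *Bub1*, *Ttk* and *Cenpf*, 11 of which are mitotic and 4 G1/S members. The list is not complete, since *Cdt1* and *Cdkn1a*, for example, have also been described as targets. *Skp2*, the F-box protein of the SCF ligase that degrades p27 and that the APC/C with Fzr1 removes in G1, had signals of 219 on the wild-type and 191 on the KO array. Its log2 ratio was -0.24 with an error of 0.21, at a single probe on chromosome 15 from 9042088 to 9042147 (mm9). This is the only member probe whose accession is not listed in the RefSeq table used, so its gene name is the array's own. *Pttg1* (securin), which restrains separase until anaphase, had 4131 and 3894, a log2 ratio of -0.13 with an error of 0.20. *Skp2* and *Pttg1* thus both had less signal in *Sox21* KO, by less than 1.2-fold.

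The 12 measured substrates had a median log2 ratio of -0.03 and ranged from -0.24 to 0.11, with 5 above 0 and 7 below. This direction depends on the scaling, since dividing by each array's median put 9 above 0 and 3 below, with a median of 0.066, and without the requirement on background the median was 0.0048. Within them the 8 mitotic substrates had a median of 0.03, and all 4 G1/S substrates were below 0, with a median of -0.16, of which 2 were above 0 under the median scaling. Of the listed substrates, 0 of 12 were 1.2-fold apart in either direction, beside 27.2% of all measured genes, a count that rests on which targets were listed. It also rests on the brightest probes, since the dimmest probes of *Ccnb1* and *Gmnn* gave 0.50 and -0.43, both beyond 1.2-fold. The 30 measured members not on the list, *Cdt1* and *Cdkn1a* included, had a median of 0.09, with 20 above 0. *Fzr1*, the co-activator that recognizes G1 substrates, had log2 ratios of 0.10 and 0.08 at its probes, and *Cdc20*, the co-activator of mitosis, had -0.05. *Anapc10* did not pass the background call for either genotype, at 14.2 in wild-type and 4.37 in *Sox21* KO. The study showed its level by microarray and also by qPCR, and reports that it depended on Sox21. The arrays hold no protein levels, at which these targets are controlled.

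The CDK inhibitors restrain the kinases as cells leave the cycle. *Cdkn1a* (p21) was spotted 8 times, with mean signals of 8937 in wild-type and 7563 in *Sox21* KO, a log2 ratio of -0.28, and an SD of 0.04 between spots. A dimmer probe of *Cdkn1a*, with signals of 33.1 and 28.4, gave -0.26 with an error of 0.39, and the log2 ratio at the bright probe stayed between -0.30 and -0.19 under every alternative processing, the latter value, under 1.2-fold, from the median scaling. The difference was therefore larger than the spread between spots of the same 2 arrays, while the spread between mice is not known. *Cdkn1b* (p27), a target of Skp2, had 2664 and 2575, a log2 ratio of -0.09, with -0.22 at its dimmer probe. The members among the INK4 inhibitors of Cdk4 and Cdk6 had 273 and 333 for *Cdkn2b* (p15), a log2 ratio of 0.25, and 25.5 and 32.5 for *Cdkn2a*, a log2 ratio of 0.31 with an error of 0.40 that became 0.081 under the normexp background correction. Both CIP/KIP members were below 0 and both INK4 members above it, except that *Cdkn1b* was at 0.0052 under the median scaling. *Cdkn2a* was near the limit of detection. The 4 inhibitors had a median of 0.08, which turned to -0.016 under the normexp background correction and to -0.091 with a processed signal of at least 100 on both arrays.

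Genes of the same programmes that are no members gave medians near those of the members. Of 33 other genes of the G1/S transition and replication, 31 were measured, with a median log2 ratio of 0.03 and 19 above 0. Of these, 2, or 6.45%, were at least 1.2-fold higher, beside 14.2% of all measured genes. That much lower were 3, or 9.68%, beside 13%. Of 50 other mitotic genes, 47 were measured, with a median of 0.04, 31 above 0. At least 1.2-fold higher were 6 of them, or 12.8%, beside 14.2% of all measured genes, and 0 were that much lower, beside 13%. Of the measured genes on both lists, *Pole* and *Dlgap5* alone were at least 1.5-fold apart. *Pole*, the catalytic subunit of DNA polymerase epsilon, had signals of 1582 in wild-type and 2695 in *Sox21* KO, a log2 ratio of 0.73 with an error of 0.20, at the only measured one of its 3 probes. *Dlgap5*, a spindle protein, was dim, with 27.9 and 45.1, a log2 ratio of 0.65 with an error of 0.38.

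**Figure D3:**
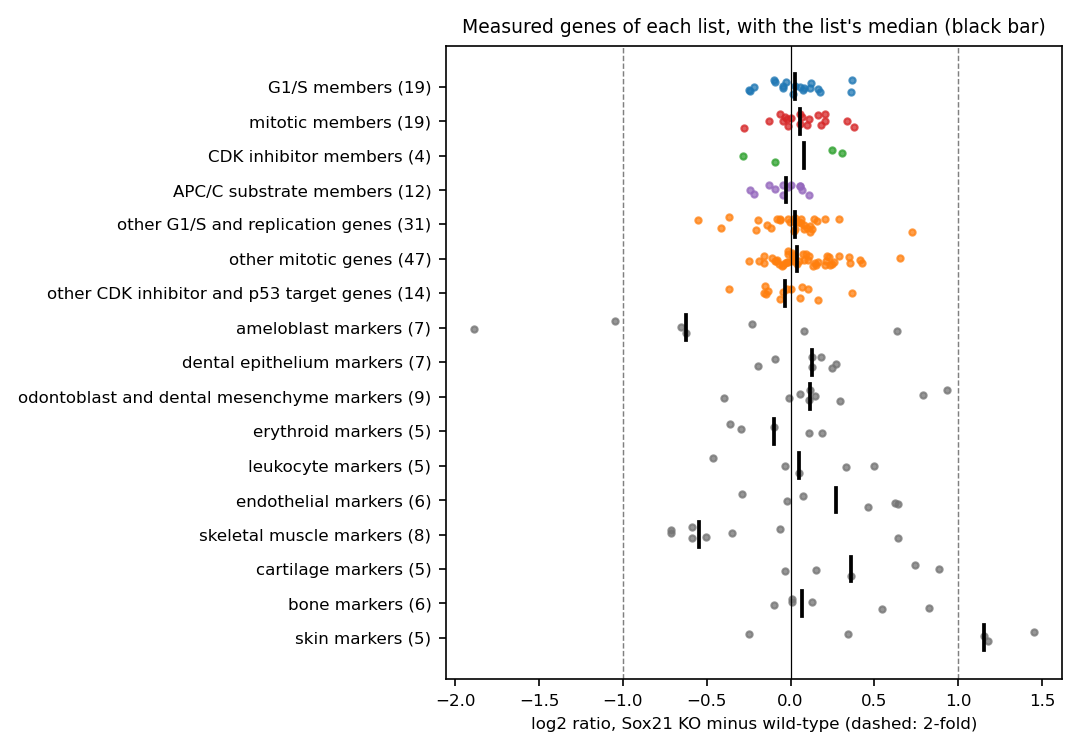
Log2 ratio (x axis, *Sox21* KO minus wild-type) of the measured genes of each list (rows, number measured in brackets), with a black bar at the list's median and dashed lines at 2-fold. The members' lists have medians between -0.03 and 0.08, whereas the ameloblast list has -0.62 and the skin list 1.15.

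The sources differ on the tissue, since the sample labels say incisor, the series text names both ameloblasts and whole tooth germs, and the study's methods name tooth germs. The composition of the samples is therefore given beside these values, and in a mixed sample fewer dividing cells and less RNA per cell cannot be told apart. Both arrays carried tooth transcripts, with the enamel gene *Amelx* at 394211 on the wild-type and 428250 on the KO array and the odontoblast gene *Dspp* at 29545 and 30230. All 7 ameloblast markers were measured, with a median log2 ratio of -0.62, 2 above 0, and a summed normalized signal of 3162 on the wild-type and 2866 on the KO array. Each such sum covers every gene of a list on the array, measured or not, and rests mostly on its brightest genes. Of 8 dental epithelium markers 7 were measured, with a median of 0.13 and sums of 548 and 641, and of 10 odontoblast and mesenchyme markers 9 were measured, with a median of 0.11 and sums of 610 and 660. The erythroid list (5 of 9 measured) had a median of -0.10, with sums of 180 and 150, the leukocyte list (5 of 8) 0.05, with 94.8 and 88.9, and the endothelial list (6 of 6) 0.27, with 54.2 and 55.3. Skeletal muscle (8 of 9) had a median of -0.55, with sums of 69.5 and 50.1, cartilage (5 of 6) 0.36, with 13.9 and 21.8, bone (6 of 6) 0.07, with 161 and 211, and skin (5 of 7) 1.15, with 8.49 and 17.4. Markers that did not pass the background call for either genotype included *Barx1*, *Epb4.2*, *Mylpf*, *Matn1* and *Ivl*. The part of these shifts in the members' log2 ratios was not tested.

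The scaling sets where 0 lies. Dividing by the median of each array, in place of the 75th percentile, moved the median log2 ratio of all measured genes from 0.01 to 0.11 and that of the members from 0.05 to 0.15, so that 35 of the 42 members were then above 0, 10 at least 1.2-fold higher and 0 lower. All genes shift by 1 factor per array there, and their shares above 0 and at 1.2-fold under this scaling are not given here. The counts are therefore no result about the members. The members' median minus the median of all measured genes was 0.04 under both scalings, and 0.02 under quantile normalization.

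**Figure D4:**
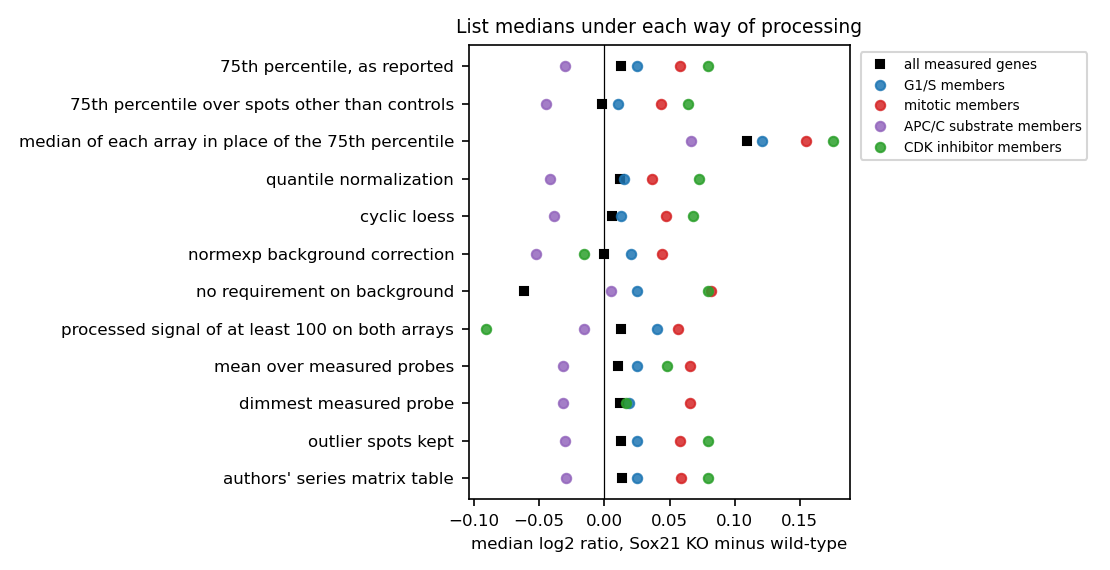
Median log2 ratio (x axis, *Sox21* KO minus wild-type) of the members' lists (circles) and of all measured genes (black squares) under each way of processing (rows). The median scaling moves all of them to the right together, the all-gene median to 0.11. The APC/C substrates lie to the left of the G1/S and mitotic members in each row. Scalings that shift every log2 ratio equally, such as the median scaling, cannot change this order, so those rows are no check of it. The substrates are also members of these classes, and their list was chosen with earlier results of these data known.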

How the data were processed

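The authors deposited 1 Agilent Feature Extraction 10.7.3.1 file per array, in which processed signal intensity and its error have background removed within the array, and a table whose values are linear ratios, each processed signal over 1 number per array (268 for wild-type, 276 for *Sox21* KO), with medians of 0.0756 and 0.0707. The study's methods name a percentile shift without the percentile. These divisors lie at the 75th percentile of all 62976 spots, which was the scaling used here. Left out were 267 outlier spots. Members were matched by the gene name in the files, each with the brightest of its probes that passed the background call for both genotypes, and 46 of the 47 chosen probes have an accession listed in RefSeq, all 46 under the same symbol. Probe coordinates are those of the files (mm9), and promoters are RefSeq windows of GRCm38.p6.

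The 47 members and all lists were chosen with earlier results of these data known. Genes described in full are the 4 highest and 4 lowest of each class, members at least 1.2-fold apart, *Skp2*, *Pttg1*, *Ccnb1*, *Gmnn* and *Mki67*, those not measured and those whose probes disagree, and others at least 1.5-fold apart. With 1 array per genotype there was no test, and the number of arrays limits precision. The steps were tested on simulated data with changes above 2-fold, a test that does not cover ratios as small as those of the members. Alternatives covered scaling, background correction (normexp, offset 50), filter, probe choice, outlier spots, the authors' table, threshold and substrate list. Normexp, quantile and cyclic loess values came from limma 3.58.1 in R 4.3.3, and the rest from Python 3.11.15 with pandas 2.3.3 and numpy 2.4.6. Some marker genes are not reported here by name.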

Additional observations from a re-analysis of the deposited data

How the results depend on the processing

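Of 459 values recomputed for single members, 406 moved by less than the SD between repeat spots, 53 by more, and 0 of the members at least 1.2-fold apart changed sign. The median scaling gave medians of 0.12 for G1/S members, 0.15 for mitotic members, 0.066 for APC/C substrates, 0.18 for CDK inhibitors, 0.13 for other G1/S genes and 0.14 for other mitotic genes, with 10 members at least 1.2-fold higher and 0 lower. All genes shift by 1 factor per array there. The shares of all genes at 1.2-fold are not given here for this scaling, for normexp or without the requirement on background. Counts under these settings are therefore no result about the members. Under the normexp background correction the CDK inhibitors had a median of -0.016, with 2 members at least 1.2-fold higher and 1 lower, and the cause was not tested. With a processed signal of at least 100 on both arrays, the inhibitor median was -0.091 and 3 members were higher, since dim members drop out. These were 7.69% of the members left, beside 11.4% of all genes that passed the same floor. Without the requirement on background 9 members were higher and 1 was 2-fold apart, since the dim members enter. At a threshold of 1.5-fold, 0 members were higher and 0 lower. No paired analysis was possible because each genotype has 1 array. Dim probes limit *Cdc25c*, *Cdkn2a* and *Cdc6*, and 5 members had no measured ratio.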

Other observations

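Inhibitors and p53 target genes outside the members gave a mixed picture. Of 15 such genes 14 were measured, with a median log2 ratio of -0.03 and 6 above 0. *Mdm2*, the ubiquitin ligase of p53 and itself a p53 target, had processed signals of 4435 in wild-type and 3542 in *Sox21* KO, a log2 ratio of -0.37 with a scanner error of 0.20. *Zmat3*, also a p53 target, had 560 and 742, a log2 ratio of 0.36. *Cdkn1c* (p57), the third CIP/KIP inhibitor, had 25610 and 23728, a log2 ratio of -0.15, and *Phlda3* had 11894 and 10979, a log2 ratio of -0.16. These 4 were picked with their values in view. The INK4 genes outside the members had log2 ratios of 0.10 for *Cdkn2c* and -0.02 for *Cdkn2d*, both within the scanner's error of 0.20.

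Among dimmer probes of members, 1 *Cdk1* probe passed the background call in wild-type alone, with 32.4 against 14.8 in *Sox21* KO, and so did 1 *Cdc6* probe, with 32.7 against 20.7. In *Sox21* KO alone, 1 *Cdkn2b* probe passed, with 27.0 in wild-type and 32.7 in *Sox21* KO, and 1 *Foxm1* probe, with 25.7 and 26.9. The 3 other G1/S genes at least 1.2-fold lower are named here after their values were known. *Cdc45* and *Dbf4*, which act at the firing of replication origins, had log2 ratios of -0.55 and -0.37 with errors of 0.27 and 0.23, and *Rb1*, the brake on E2F factors, had 5229 and 4030, a log2 ratio of -0.42.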
